A study of Mus musculus with 6 samples.

Results

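The mitochondrial genome of the mouse is a small circle of DNA, and the deposited count table holds 37 rows for it among 54532 genes. The members were taken as every row of the table placed on MT. They are 13 mRNA genes, 2 rRNA genes and 22 tRNA genes, of which 28 lie on the plus strand and 9 on the minus strand. All 37 had the same start, end and strand in the GENCODE M21 annotation of mm10.

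AML12 cells, a line grown from mouse hepatocytes that carried a transgene for human transforming growth factor alpha, were treated for 24 h. All 6 libraries are labelled AML12, parenchymal hepatic cells and WT, with 3 libraries labelled PA/OA (400 nM and 800 nM of a modelling reagent, in the submitters' units) and 3 labelled PP (250 µg/ml), in a study titled for Camellia oleifera meal peptides. Whether the PP cells also received PA/OA is not stated, and no untreated cells were analysed here. Nothing in the labels ties the libraries to separate cultures. Each p-value thus sets the group difference against the spread of these libraries only, and that spread may be technical.

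Total counts ran from 24113169 to 32560589 per library, and the TMM scaling factors were 1.15 to 1.17 in PA/OA and 0.849 to 0.867 in PP. Of 8 hepatocyte markers 7 were tested, and 2 were higher in PP (the keratin genes Krt8 and Krt18), 3 lower (Apob, Hnf4a and Alb) and 2 not called. Apob, which codes for apolipoprotein B, stood at 246 ± 5.93 and 75.8 ± 9.68 CPM in PA/OA and PP, and Hnf4a, a transcription factor of hepatocytes, at 71.7 ± 5.06 and 26.8 ± 1.54 (SD, n = 3). Krt8 and Krt18 were abundant, but Alb, the albumin gene, stood at 12.2 ± 1.36 and 9.90 ± 1.38 CPM (PA/OA and PP, SD, n = 3) and Ttr, Apoa1 and Serpina1a were under 3 CPM. The bile duct keratin gene Krt19 stood at 2011 and 3513 CPM. The summed markers of fibroblasts and endothelium were at most 3.13 and 0.507 CPM in any library. Those of macrophages were 3.13 to 3.79 CPM in PA/OA and 26.6 to 29.5 in PP, nearly all from Cd68, while Adgre1 had no count and Ptprc and Csf1r stayed under 1 CPM. The part of these markers in the results below was not tested. With summed RNA of many cells, fewer cells of a type and less RNA per cell cannot be told apart.

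Mitochondrial DNA is read into RNA along the whole length of each strand, and the long transcripts are cut mainly where tRNA genes lie between the others. The mRNAs all code for subunits of the respiratory chain and of ATP synthase, and the rRNAs and tRNAs serve the mitochondrion's own ribosomes. The rRNA genes lie first after the promoter for the plus-strand transcript and are also made by a shorter transcript that ends behind them. Mature RNA levels thus depend on cutting and decay as well as on transcription. This genome supplies part of the respiratory chain, which hepatocytes use in burning fatty acid.

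The genes are packed so tightly that neighbours overlap, which matters for counting. The first sequence is the stretch shared by mt-Atp8 and mt-Atp6 (43 bases, MT 7927 to 7969, plus strand, mm10), with the start codon of mt-Atp6 and the stop codon of mt-Atp8 in capitals. The second is the end of mt-Nd4l (MT 10144 to 10173), whose capitals are shared with mt-Nd4. The third is the end of mt-Nd5 (MT 13536 to 13565), whose capitals overlap mt-Nd6 on the other strand.
mt-Atp8/mt-Atp6: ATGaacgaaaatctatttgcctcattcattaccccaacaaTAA
mt-Nd4l: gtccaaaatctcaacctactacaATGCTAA
mt-Nd5: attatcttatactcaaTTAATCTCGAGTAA

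Most mRNA genes here are annotated with a whole stop codon in the DNA. Of mt-Nd1 and mt-Nd2 the last 2 bases also lie in the tRNA genes mt-Ti and mt-Tw. In mt-Co3, mt-Nd4 and mt-Cytb a lone T, in capitals, follows the last whole codon, and the poly(A) tail completes the stop codon. These are the last 30 bases of each, ending at MT 9390, 11544 and 15288.
mt-Co3: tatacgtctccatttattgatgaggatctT
mt-Nd4: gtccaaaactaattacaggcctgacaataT
mt-Cytb: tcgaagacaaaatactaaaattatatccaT

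Part of this genome also exists as a copy in the nucleus, and reads from it cannot be placed where the copies are alike. On chromosome 1, from 24611535 to 24616197 on the minus strand, 7 annotated pseudogenes follow one another as the genes from mt-Co1 to mt-Nd4 do on MT. Gm28661, Gm10925, Gm28437, Gm10222 and Gm28439 had no mismatch with mt-Co2, mt-Atp6, mt-Co3, mt-Nd4l and the first 876 bases of mt-Nd4. Gm28438 differed from mt-Nd3 at 1 base of 345 (T3C, counted from the first base of the gene, with the mitochondrial base first). Gm29216 covered the last 492 of the 1545 bases of mt-Co1 and differed at 6 bases, and the differences are T1056A, C1057T, A1059G, A1060G, C1062A and A1066T on the same count. The starts of both imperfect copies are shown with the differing bases in capitals (MT 9459 to 9518 against chromosome 1 24613060 to 24613119, and MT 6381 to 6440 against 24616138 to 24616197).
mt-Nd3: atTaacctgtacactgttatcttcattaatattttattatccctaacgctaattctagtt
Gm28438: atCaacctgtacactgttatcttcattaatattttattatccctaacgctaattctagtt
mt-Co1: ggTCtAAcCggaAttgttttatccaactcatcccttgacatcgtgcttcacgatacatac
Gm29216: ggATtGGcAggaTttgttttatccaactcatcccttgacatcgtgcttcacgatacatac

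The members therefore fall into 3 classes. From 99.0% to 99.9% of mt-Co2, mt-Atp6, mt-Co3, mt-Nd3 and mt-Nd4l lies in the copy, and of their 150-base windows 97.0% to 99.8% were found there unchanged. Of mt-Nd4 63.6% and of mt-Co1 31.8% lies in it. No annotated copy on chromosome 1 covers mt-Rnr1, mt-Rnr2, mt-Nd1, mt-Nd2, mt-Nd5, mt-Nd6, mt-Cytb or mt-Tp. Between the copies of mt-Co2 and mt-Atp6, where mt-Atp8 lies, 233 bases stand on chromosome 1 and 233 on MT, and their letters were not compared. Elsewhere 8 annotated genes shared at least 1 run of 50 bases with a member, and the 7 of them in the table held at most 149 counts in any library. They matched mt-Nd2, mt-Nd5 and mt-Rnr2 as well as mt-Co1, mt-Co2 and mt-Atp6, and the classes above leave them out. The 149 counts were those of Gm13340, which matches mt-Co1, in PP replicate 2.

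Libraries labelled PP had lower scaled counts of most mitochondrial mRNA genes, and higher ones of mt-Co1 and of both rRNA genes. The direction of mt-Co1 turned under a setting given below. For the rRNA genes the part of rRNA removal or poly(A) selection was not tested. Of the 37 members, 21 had no count in any library, all of them tRNA genes. Of the 16 with counts 15 were tested, and mt-Atp8, with 1 to 10 counts per library, was too low. mt-Nd3 and mt-Nd4l passed the filter on low counts only through PA/OA, where they were higher, and are left out of the counts that follow. Of the other 13, 3 rose (mt-Rnr1, mt-Rnr2 and mt-Co1), 9 fell and 1 (mt-Co2) did not pass at an adjusted p of 0.05 by the quasi-likelihood test of edgeR, adjusted over 15718 genes by Benjamini and Hochberg.

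Over all genes tested, 75.0% were called, 35.1% as higher and 39.9% as lower. The values of the 2 groups did not overlap for 12 of these 13 members, against 77.4% of all genes. A called member is thus not unusual in these data, and the sizes and the order of the changes carry more than the count. The median log2 fold change was -1.05 over the 13 members and -1.15 without mt-Co1. Over their 10 mRNA genes it was -1.31, or -1.38 without mt-Co1, and over all genes it was -0.09. Of all called genes 46.8% were higher with TMM scaling, 35.6% with upper-quartile scaling and 26.6% with library size only, and the median of all genes shifted by -0.24 under upper-quartile scaling and by -0.43 under library size (log2).

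**Figure D1:**
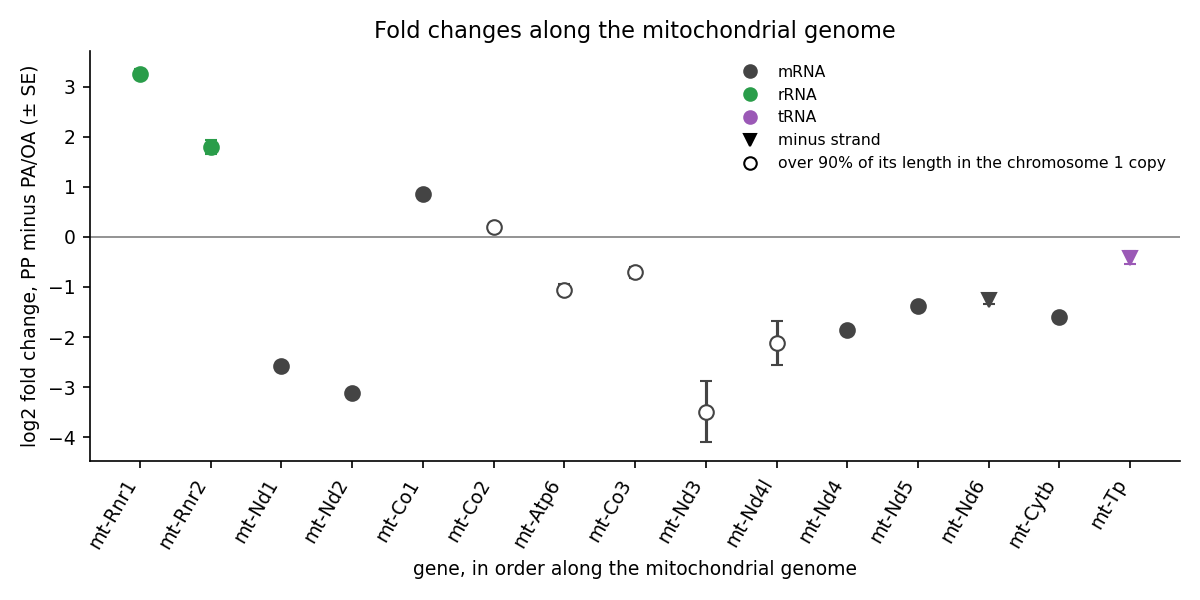
Log2 fold change of PP against PA/OA (± SE, edgeR, TMM scaling) for the 15 members tested, in order along the genome. The rRNA genes, mt-Co1 and, uncalled, mt-Co2 lie above 0, and mt-Nd1 and mt-Nd2 between them lie at -2.57 and -3.12. Genes almost wholly inside the chromosome 1 copy are drawn open, and mt-Nd4 and mt-Co1, partly inside it, are drawn filled.

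The rRNA genes open the genome. mt-Rnr1, the rRNA of the small ribosomal subunit (MT 70 to 1024, plus strand), stood at 31.7, 44.6 and 45.9 CPM in the PA/OA libraries and at 378, 380 and 405 in the PP libraries. Every PP library was far above every PA/OA library. The log2 fold change was 3.25 ± 0.09 (SE; adjusted p = 8.48e-18, edgeR), a 9.53-fold rise.

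mt-Rnr2, the rRNA of the large subunit (MT 1094 to 2675), stood at 29.6, 52.0 and 59.3 CPM in PA/OA and at 163, 154 and 171 in PP. PA/OA replicate 1 was the lowest library for both rRNA genes, and neither gene overlapped between groups. mt-Rnr2 rose by 1.79 ± 0.14 (log2, SE; adjusted p = 1.41e-10, edgeR). The rRNA genes, though neighbours, changed unequally: the log2 ratio of mt-Rnr1 to mt-Rnr2 went from -0.16 ± 0.24 to 1.26 ± 0.05 (SD, n = 3 in each group; exact permutation p = 0.1, the smallest that 3 against 3 libraries allow). Annotated rRNA genes outside the mitochondrion summed to 1313 to 1516 CPM in the PA/OA libraries and to 458 to 517 in the PP libraries. Of the 7 of them tested 3 were lower, 0 higher and 4 not called, and their median log2 fold change, 0.65, had the opposite sign to the change of the sum. Rn7sk, a nuclear RNA without a poly(A) tail, fell from 8.48 ± 0.76 to 1.00 ± 0.39 CPM, and 6 of the 8 such genes on the list had no count. The labels describe both removal of rRNA and selection of poly(A) RNA without saying which was used, and the part of that step was not tested.

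Behind the rRNA genes lie genes of complex I, which takes electrons from NADH into the chain. mt-Nd1 (MT 2751 to 3707, plus strand) stood at 1407, 1579 and 1324 CPM in PA/OA and at 239, 221 and 264 in PP. Its first codon is GTG, and no copy of it on chromosome 1 is annotated. It fell by 2.57 ± 0.07 on the log2 scale (SE; adjusted p = 4.70e-18, edgeR), to a level 5.95-fold lower.

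mt-Nd2 (MT 3914 to 4951) stood at 830, 874 and 781 CPM in PA/OA and at 91.9, 89.8 and 104 in PP. It had the largest fall among the members that passed the filter in each group. Its log2 fold change was -3.12 ± 0.07 (SE; adjusted p = 1.59e-19, edgeR), or 8.71-fold lower. It fell further than its neighbour, with a log2 ratio of mt-Nd2 to mt-Nd1 of -0.79 ± 0.05 in PA/OA and -1.34 ± 0.04 in PP (SD, n = 3; exact permutation p = 0.1). No PP value of that ratio reached a PA/OA value.

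mt-Co1, which codes for the catalytic subunit of cytochrome c oxidase (complex IV), comes next after a cluster of tRNA genes. It lies at MT 5328 to 6872 on the plus strand and was the most abundant member in every library. It stood at 9111, 10273 and 8566 CPM in PA/OA and at 16279, 17194 and 16860 in PP, with every PP library above every PA/OA library. The log2 fold change was 0.85 ± 0.06 (SE; adjusted p = 2.29e-11, edgeR), a 1.80-fold rise. The size depended on the scaling: it was 0.61 with upper-quartile scaling and 0.41 with library size only, called as higher in both. With each library's trend with abundance removed, which was tried only after the data were seen, it was -0.22 and called as lower (adjusted p = 0.000615, edgeR). At that end of the trend only 4 other genes stood within 1 log2 unit of mt-Co1 or above it.

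Ratios within a library do not depend on the scaling. Against its upstream neighbour mt-Nd2, mt-Co1 went from a log2 ratio of 3.49 ± 0.06 to 7.47 ± 0.12 (SD, n = 3; exact permutation p = 0.1). Against the sum of the other 12 mRNA genes it went from 0.32 ± 0.04 to 2.95 ± 0.12. In PA/OA mt-Co1 thus held more counts than all other mRNA genes together, and in PP several times as many. In both ratios all PP libraries lay above all PA/OA libraries. Among those other genes mt-Co2, mt-Atp6, mt-Co3, mt-Nd3 and mt-Nd4l lie almost wholly in the nuclear copy. Their counts leave out any reads placed on it or discarded, so the sum need not follow the amounts of RNA.

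**Figure D2:**
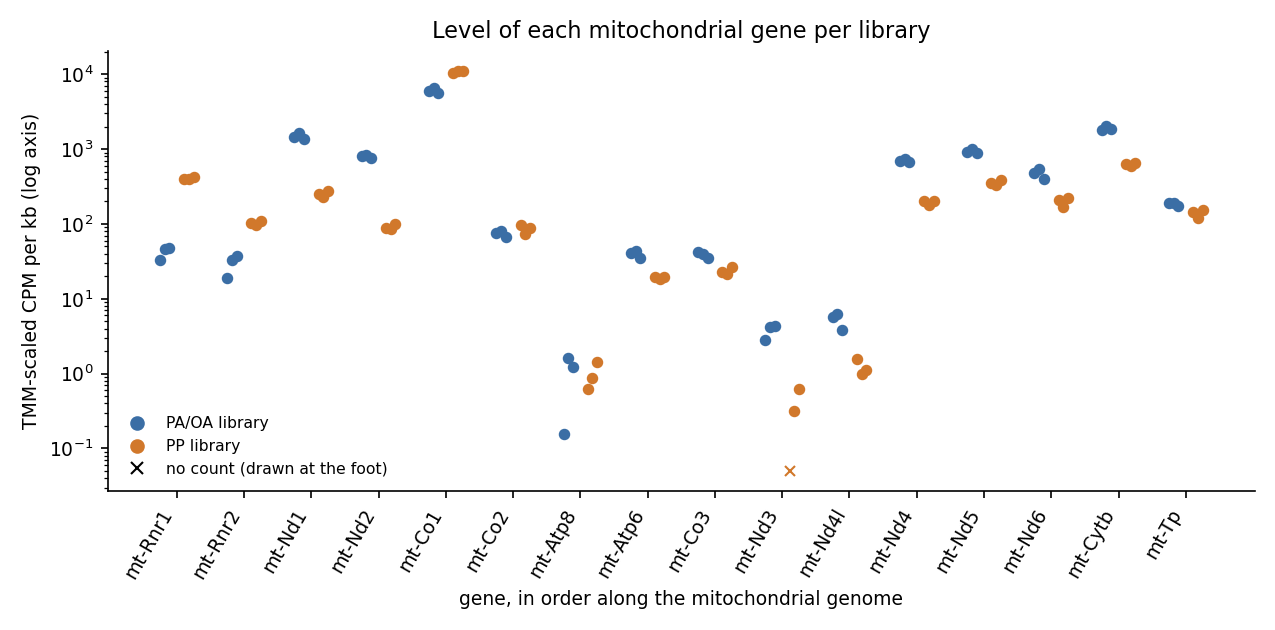
TMM-scaled CPM per kilobase of gene (log axis) in each of the 6 libraries, for the 16 members with counts in order along the genome. The groups part widely at mt-Rnr1, mt-Nd1 and mt-Nd2, mt-Co1 is the highest in both groups, the genes from mt-Co2 to mt-Nd4l are all under 100 CPM per kilobase, and a cross at the foot marks the library with no count of mt-Nd3 (PP replicate 1).

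Of the genes from mt-Co2 to mt-Nd4l all but mt-Atp8, whose letters were not compared, lie almost wholly in the nuclear copy. mt-Co2, a cytochrome c oxidase subunit that carries the site for electrons from cytochrome c (MT 7013 to 7696), stood at 51.8, 55.2 and 46.0 CPM in PA/OA and at 66.1, 49.7 and 59.5 in PP. It was the only tested member whose groups overlapped. Its log2 fold change was 0.19 ± 0.09 (SE; adjusted p = 0.0565, edgeR). That value passed as higher without PA/OA replicate 2 (0.26), without PP replicate 2 (0.32) and without a filter (0.21), and as lower when scaled by library size alone (-0.24, with an edgeR adjusted p of 0.0238), so no direction is given for mt-Co2.

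The ATP synthase genes follow. mt-Atp8 (MT 7766 to 7969) held 1, 10 and 7 counts in PA/OA and 3, 5 and 8 in PP, and without a filter its log2 fold change was -0.01 (adjusted p = 0.996, edgeR). mt-Atp6, a subunit of the proton channel (MT 7927 to 8607), stood at 27.6, 29.7 and 23.5 CPM in PA/OA and at 13.4, 12.3 and 13.3 in PP. It fell by 1.05 ± 0.11 on the log2 scale (SE; adjusted p = 1.09e-08, edgeR). These overlapping genes are known to be carried by the same mature mRNA, and the deposited counts of the pair differ widely.

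mt-Co3, the remaining cytochrome c oxidase subunit of this genome (MT 8607 to 9390), stood at 32.7, 30.7 and 27.3 CPM in PA/OA and at 17.9, 16.6 and 20.96 in PP. It fell by 0.71 ± 0.10 on the log2 scale (SE; adjusted p = 2.30e-06, edgeR). Of the oxidase genes of the genome, with TMM scaling, mt-Co1 was thus called as higher and mt-Co3 as lower, and mt-Co2 was not called.

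mt-Nd3 (MT 9459 to 9806) and mt-Nd4l (MT 9877 to 10173), small membrane subunits of complex I, held the fewest counts among those tested. mt-Nd3 held 31, 44 and 42 counts in PA/OA and 0, 3 and 6 in PP. mt-Nd4l held 53, 56 and 32 in PA/OA and 11, 8 and 9 in PP. Both were lower in every PP library, with log2 fold changes of -3.49 ± 0.61 and -2.12 ± 0.43 (SE; adjusted p = 2.67e-05 and 0.000155, edgeR). Both passed the filter only through PA/OA, where they were higher, so their p-values and calls are no support for this direction. The value for mt-Nd3 rested on few counts and was -2.95 without PP replicate 1 and -4.38 without PP replicate 3. With the trend with abundance removed these values were -1.90 and -1.05, both called.

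mt-Nd4, a proton-pumping subunit of complex I (MT 10167 to 11544), has its last part outside the copy and is far more abundant in the table. It stood at 952, 1027 and 935 CPM in PA/OA and at 277, 249 and 283 in PP. It fell by 1.85 ± 0.06 on the log2 scale (SE; adjusted p = 5.03e-17, edgeR), with the groups well apart.

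mt-Nd5, another proton-pumping subunit of complex I (MT 11742 to 13565, the longest mRNA gene here), stood at 1677, 1830 and 1602 CPM in PA/OA and at 651, 613 and 704 in PP. It fell by 1.38 ± 0.06 on the log2 scale (SE; adjusted p = 9.04e-15, edgeR). Among the complex I genes outside the copy the falls thus ran from 3.12 for mt-Nd2 to 1.25 for mt-Nd6.

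mt-Cytb, the cytochrome b of complex III and the only gene of that complex here (MT 14145 to 15288), was second in abundance. It stood at 2069, 2301 and 2150 CPM in PA/OA and at 722, 685 and 739 in PP. It fell by 1.60 ± 0.06 on the log2 scale (SE; adjusted p = 1.70e-16, edgeR). Relative to mt-Cytb, mt-Nd1 was lower still in PP, with a log2 ratio of -0.60 ± 0.09 in PA/OA and -1.57 ± 0.07 in PP (SD, n = 3; exact permutation p = 0.1), while that of mt-Nd5 to mt-Cytb went from -0.35 ± 0.06 to -0.13 ± 0.05 (exact permutation p = 0.1). The log2 ratio thus moved by 0.23 for mt-Nd5 and by -0.97 for mt-Nd1, in opposite directions.

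On the minus strand, 1 mRNA gene and 8 tRNA genes are annotated. mt-Nd6, a complex I subunit (MT 13552 to 14070), stood at 252, 280 and 210 CPM in PA/OA and at 108, 88.2 and 116 in PP. It fell by 1.25 ± 0.09 on the log2 scale (SE; adjusted p = 3.65e-11, edgeR), close to the fall of 1.38 of mt-Nd5, which lies opposite its end. The log2 ratio of mt-Nd6 to mt-Nd5 was -2.79 ± 0.12 in PA/OA and -2.66 ± 0.11 in PP (SD, n = 3; exact permutation p = 0.3), a difference of 0.13 with overlapping groups. The sources used here do not say whether counting used strand, so reads of the strand opposite mt-Nd6 may be among its counts.

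mt-Tp, the tRNA for proline (MT 15356 to 15422, minus strand), was the only tRNA gene with counts, and borders the control region where no gene is annotated. Its sequence on the minus strand is the whole gene of 67 bases.
mt-Tp: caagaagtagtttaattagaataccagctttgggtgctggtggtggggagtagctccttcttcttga

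mt-Tp stood at 12.8, 12.95 and 11.6 CPM in PA/OA and at 9.76, 7.999 and 10.3 in PP. It fell by 0.42 ± 0.13 on the log2 scale (SE; adjusted p = 0.00748, edgeR), but the call was lost when PP replicate 2 was left out (-0.29, with an edgeR adjusted p of 0.0592). It was also lost with the trend with abundance removed (-0.21, with an edgeR adjusted p of 0.170). The other 21 tRNA genes, 59 to 75 bases long, had 0 counts in all 6 libraries, which allows up to 0.0957 to 0.126 CPM per library at 3 counts, for counting error only. Their levels were not detectable by this counting, and no difference between the groups can be read from them. Of the mitochondrial counts, those on the minus strand (mt-Nd6 and mt-Tp) made up 1.53% ± 0.11 in PA/OA and 0.581% ± 0.082 in PP (SD, n = 3). Without mt-Co1 in the denominator these shares were 3.42% ± 0.31 and 4.14% ± 0.34, so the direction turned with mt-Co1 (exact permutation p = 0.1 for each).

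Ordered by level per kilobase, mt-Co1 led in both groups, at 6030 ± 564 CPM per kilobase in PA/OA and 10859 ± 300 in PP (SD, n = 3). In PA/OA mt-Cytb (1900 ± 103), mt-Nd1 (1501 ± 136), mt-Nd5 (934 ± 64), mt-Nd2 (798 ± 45) and mt-Nd4 (705 ± 36) followed. In PP the order was mt-Cytb (625 ± 24), mt-Rnr1 (406 ± 16), mt-Nd5 (360 ± 25), mt-Nd1 (252 ± 22), mt-Nd6 (200 ± 27) and mt-Nd4 (196 ± 13). mt-Nd6 and mt-Nd4 differed there by less than their SD. mt-Nd2 stood at 91.6 ± 7.15 CPM per kilobase in PP, below mt-Tp (139 ± 17.7) and mt-Rnr2 (103 ± 5.48), while in PA/OA it was above both. Those 5 genes with nearly their whole length in the copy stayed between 0.313 and 85.4 CPM per kilobase, and those levels leave out any reads placed on the copy or discarded.

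Each pseudogene on chromosome 1 had a fold change near that of the mitochondrial gene it matches. On the log2 scale Gm29216 rose by 0.76 ± 0.10, beside 0.85 for mt-Co1. Gm28661 had 0.09 ± 0.08 and was not called, beside 0.19 for mt-Co2. Gm10925, Gm28437 and Gm28439 had -0.99, -0.88 and -1.87, beside -1.05, -0.71 and -1.85 for mt-Atp6, mt-Co3 and mt-Nd4. Gm10222 and Gm28438 had -2.18 and -3.55, beside -2.12 and -3.49 for mt-Nd4l and mt-Nd3. All 5 of these copies were called as lower. The log2 ratio of gene to copy differed between the groups by -0.42 (mt-Nd3, 0.5 counts added) to 0.17 (mt-Co3), with exact permutation p from 0.1 to 1. The part of shared reads in these likenesses was not tested.

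**Figure D3:**
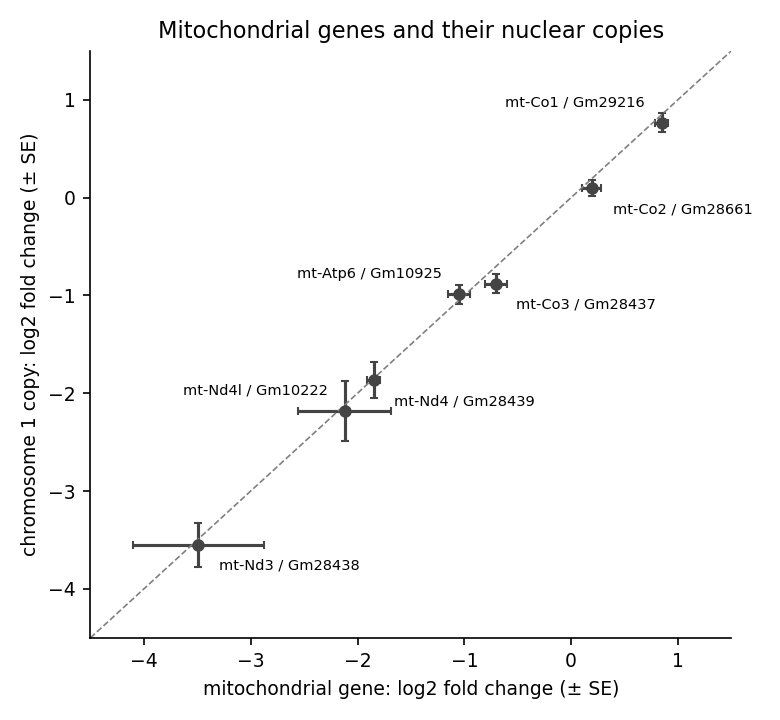
Log2 fold change (± SE, edgeR) of 7 mitochondrial genes on the horizontal axis and of their chromosome 1 copies on the vertical axis, with the line of equal values dashed. The pairs range from mt-Nd3 with Gm28438 near -3.5 to mt-Co1 with Gm29216 near 0.8 and stay close to the line.

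With the counts of each copy added to its gene, which was also tried after the data were seen, the direction and call of every tested member stayed as before. mt-Nd3 then had -3.55 ± 0.23 and mt-Nd4l -2.17 ± 0.26 (log2, SE), with smaller errors than alone. Most of the counts in these sums were those of the copies. In PA/OA Gm28438 held 269, 422 and 305 counts beside 31, 44 and 42 of mt-Nd3. There Gm10222 held 116, 92 and 78 beside 53, 56 and 32 of mt-Nd4l. The summed values thus largely repeat those of the copies and are no firmer for the genes alone. mt-Co2 had 0.15 ± 0.07 (adjusted p = 0.0647, edgeR) and again did not pass.

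As a share of library counts, the sum over the genome changed little. mt-Co1 and both rRNA genes were higher in PP, and most other mRNA genes were lower. The members took 1.93%, 2.12% and 1.83% of library counts in PA/OA and 1.65%, 1.68% and 1.71% in PP. Without mt-Co1 they took 0.862%, 0.936% and 0.838% in PA/OA and 0.237%, 0.218% and 0.249% in PP, so that the PP mean was 0.267 of the PA/OA mean. The difference in means was -0.284 percentage points with mt-Co1 and -0.644 without it (exact permutation p = 0.1 for each, or 0.135 adjusted over the 27 shares and ratios compared). Neither measure overlapped between groups. Both are shares of raw counts, without the TMM factors (1.15 to 1.17 in PA/OA and 0.849 to 0.867 in PP). Divided by those factors, the total with mt-Co1 is higher in PP, so its direction depends on the scaling. The total without mt-Co1 is lower in PP either way. Both totals leave out any reads placed on the nuclear copy or discarded, which touches the genes from mt-Co2 to mt-Nd4l most.

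Within the mitochondrial counts, mt-Co1 took 55.1% ± 0.80 in PA/OA and 86.0% ± 0.89 in PP (SD, n = 3). The other mRNA genes together went from 44.3% ± 0.72 to 11.1% ± 0.77. The rRNA genes went from 0.521% ± 0.147 to 2.82% ± 0.11, and without mt-Co1 in the denominator from 1.159% ± 0.31 to 20.2% ± 0.56. The log2 ratio of rRNA to mRNA genes without mt-Co1 went from -6.45 ± 0.41 to -1.98 ± 0.05. Each of these had an exact permutation p of 0.1, with all PP libraries on the same side of all PA/OA libraries. These shares too leave out any reads placed on the nuclear copy or discarded.

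**Figure D4:**
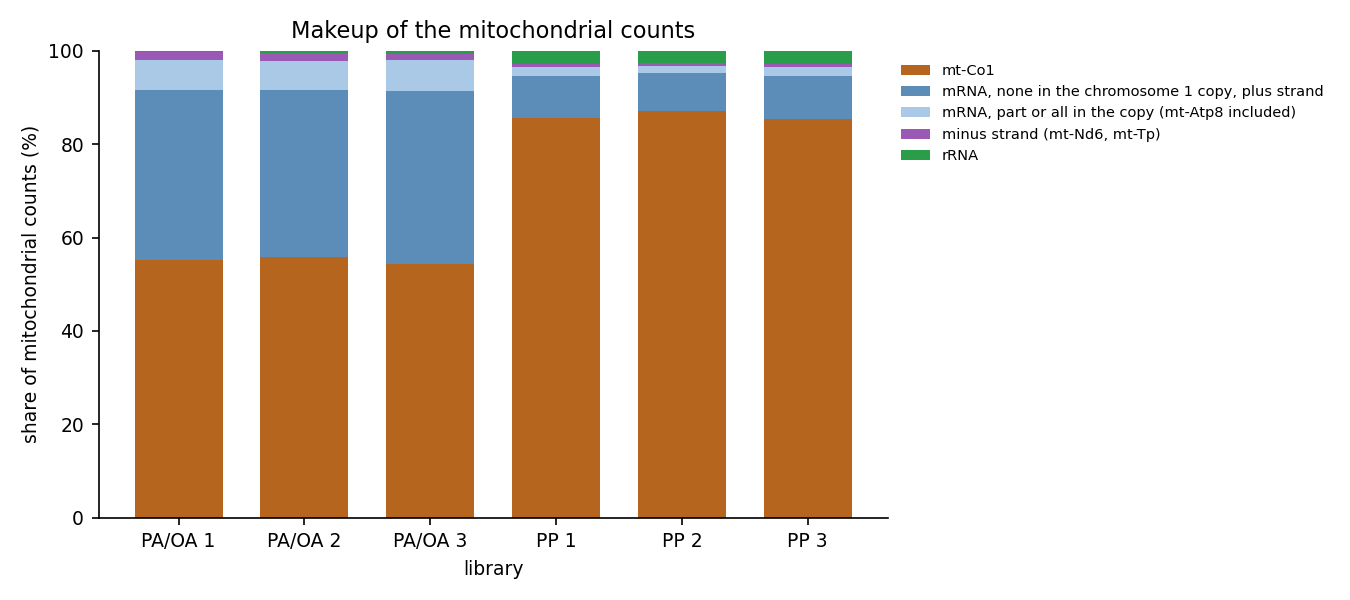
Share of the mitochondrial counts (percent, stacked from 0 to 100) in each of the 6 libraries, by gene class. mt-Co1 grows from 54.3% to 55.9% in the PA/OA libraries to 85.4% to 87.0% in the PP libraries, and the mRNA genes without a chromosome 1 copy shrink.

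Nuclear genes that copy, cut, modify and stabilise mitochondrial RNA, listed together with Polg, Polg2, Twnk and Ssbp1 of mitochondrial DNA replication, went both ways. The list holds 42 of them, and of the 41 tested 13 rose, 22 fell and 6 were not called, where 35.1% of all genes rose and 39.9% fell. Their median was -0.50 (log2 fold change), and that of all genes -0.09. Grsf1, an RNA-binding protein of mitochondrial RNA granules, rose from 80.5 ± 6.32 to 277 ± 11.4 CPM (SD, n = 3; adjusted p = 1.89e-16, edgeR). Lrpprc, which stabilises mitochondrial mRNAs, fell from 128 ± 1.161 to 60.7 ± 2.44 CPM (adjusted p = 2.86e-13, edgeR). Twnk, the helicase of mitochondrial DNA replication, fell from 79.5 ± 4.15 to 19.7 ± 2.45 CPM (adjusted p = 4.37e-15, edgeR). Mrm3, which methylates the rRNA of the large subunit, fell from 14.3 ± 1.65 to 1.89 ± 0.23 CPM (adjusted p = 1.19e-12, edgeR). Taco1, which the annotation names as an activator of the translation of mt-Co1 mRNA, fell from 12.2 ± 0.75 to 4.14 ± 0.91 CPM (adjusted p = 2.45e-08, edgeR), so its mRNA and that of mt-Co1 went opposite ways. Their part in the members' levels was not tested.

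**Figure D5:**
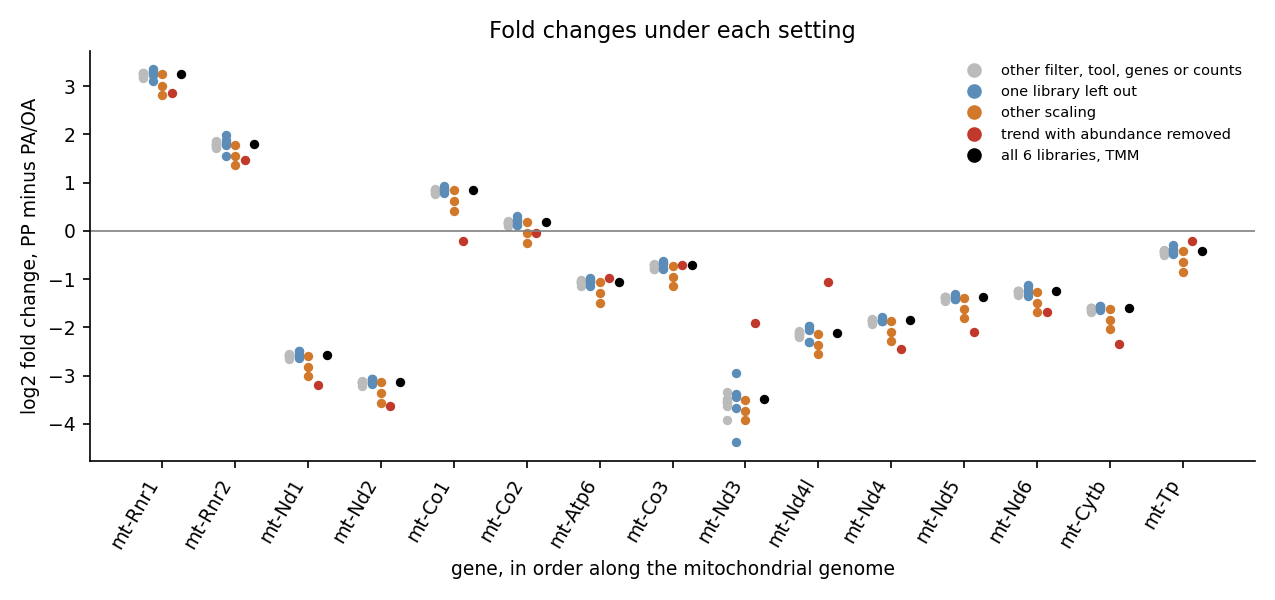
Log2 fold change of the 15 tested members under each setting, in order along the genome, with the fit to all 6 libraries in black. mt-Co1 lies below 0 only where the trend with abundance was removed (-0.22), mt-Co2 lies around 0, and the other members keep their side of 0 in all settings drawn.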

How the data were processed

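RNA sequencing gave 6 libraries of AML12 cells, grouped by the treatment labels, with replicate numbers from the titles. The authors deposited raw counts per gene, made with featureCounts on build mm10 per the submitters' processing notes, which also name DESeq2 1.16.1 without its role. The aligner, the strand setting, the handling of reads that match several places or genes, and the choice between poly(A) selection and rRNA removal are not stated in any source used here. Reads over 2 genes or 2 copies may therefore be discarded or placed on either.

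Counts were analysed over the whole table in R 4.3.3 with edgeR 4.0.16: filterByExpr (minimum count 10), TMM, two-sided quasi-likelihood F-test, Benjamini-Hochberg adjustment, threshold 0.05. CPM are TMM-scaled, log2 fold changes are PP minus PA/OA, and each SE is the fold change over the root of its F statistic. The fit was tested on simulated data. Shares and ratios were compared with exact two-sided permutation tests (scipy 1.17.1). Sequences come from the GENCODE M21 transcripts (mm10). Alternatives were other scalings, filters and tools (DESeq2 1.42.0, limma-voom 3.58.1), halved counts, a replicate block, other gene sets and denominators, and leaving out each library. All mRNA and rRNA members and mt-Tp are named, and the tRNA genes without counts are given together. Chromosome 1 copies, up to 4 genes of the RNA factor list with the smallest p, and Taco1, found by its description, are also named. The members and lists were chosen with earlier results of these data known.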

Additional observations from a re-analysis of the deposited data

How the results depend on the processing

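Of 284 fold changes of the 15 tested members under the alternatives, 275 kept their direction and their side of the threshold, 2 lost the call (mt-Tp without PP replicate 2 and with the trend removed), 3 gained it (mt-Co2), and 4 turned: mt-Co1 with each library's trend with abundance removed (-0.22), and mt-Co2 with library size only (-0.24), upper-quartile scaling (-0.044) and the trend removed (-0.034). The nuclear copy Gm28661 turned in the same 3 settings (-0.34, -0.14 and -0.064). Among the 13 members that pass the filter in each group, the number called as higher ran from 2 to 4 and as lower from 8 to 10. The lowest count of higher members, 2, came with mt-Co1 removed from the table and with the trend removed. The trend setting also changed mt-Nd3 to -1.90 and mt-Nd4l to -1.05, both called as lower. The 275 hold values of both genes, which passed the filter only through PA/OA, so those values are no support for their direction. With the replicate number as a block, 3 of these 13 were higher, 9 lower and 11515 of all genes called. Same-numbered libraries did not deviate together (correlations of 0.00517, 0.00304 and -0.0234), so the numbers were not taken as pairs. With protein-coding counts as denominator, the share without mt-Co1 differed by -0.697 percentage points. Among mRNA genes the share of mt-Co1 differed by 33.1 points. Without mt-Co1 in the denominator the share of rRNA differed by 19.0 points, and that of minus-strand genes by 0.713, the opposite direction. With mt-Co1 kept among the mRNA genes the log2 ratio of rRNA to mRNA differed by 2.51. Those follow from the changed denominators; the cause of the other changes was not tested. Few counts limit mt-Atp8, mt-Nd3 and mt-Nd4l, and 3 libraries a group limit the exact tests.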
